A study of Mus musculus with 6 samples.

Results

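Fkbp5, Tsc22d3, Ddit4, Zbtb16, Sgk1 and Klf9 are 6 genes whose transcription is known to respond to glucocorticoids, and they were followed here in dissociated mouse lung. They were matched by gene symbol and make up 6 of the 31054 features of the count matrices. They were chosen by their UMI levels in these libraries, with the difference between the study's groups known, so that difference is described without a test.

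Lung cells of male mice, aged 21 months and on a C57BL/6 background, were sequenced singly in 6 libraries, 3 per group. The labels number the 3 libraries of a group as samples and do not say outright that each is a different mouse. Mice of the genotype p16-CreERT2/R26-LSL-DTR gave the libraries labelled p16-DTR. In these mice a tamoxifen-activated Cre is expressed under p16, and it opens a diphtheria toxin receptor cassette at the Rosa26 locus. The control libraries came from p16-CreERT2 mice, which carry the same Cre and no receptor cassette. Tamoxifen was given to all mice for 5 days and, 2 weeks later, diphtheria toxin for 5 days, and lungs were taken after 2 weeks of recovery. There was no group without the toxin, and every mouse carried the Cre. For each library 9000 CD45-positive and 20000 CD45-negative cells were sorted and pooled, so the balance of stromal and immune cells was set by the sort. The question of the design is what the removal of cells with high p16 does to the aged lung.

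Cdkn2a, the gene that encodes p16, did not fall in the libraries labelled p16-DTR. It stood at 7.01, 8.59 and 7.35 counts per 1000000 UMIs (CPM) in replicates 1 to 3 of that label and at 1.27, 2.75 and 2.72 in the controls. Counts at the 3' end do not separate p16 from the other product of the locus. Sums over all cells do not separate the number of cells from the RNA per cell, and removal of cells with Cdkn2a transcripts was not tested. The tdTomato reporter entry of the matrices, which the labels do not name, stood at 0.300, 0.267 and 0.314 CPM in the libraries labelled p16-DTR. No tdTomato UMI was counted in the 3 controls, which allows up to 0.0143 CPM in the shallowest of them, a limit of counting error only. It thus divides the libraries the same way as the genotype labels. The groups are named throughout by their labels. The matrices held 13482 to 17332 cell barcodes and between 254200305 and 344421685 UMIs per library. After filtering, 11315 to 14725 cells per library were kept, and pairs of libraries had between 59 and 94 barcodes in common.

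Glucocorticoids enter cells and bind the glucocorticoid receptor, encoded by Nr3c1, which chaperones hold in the cytoplasm until hormone arrives. The bound receptor moves to the nucleus, where it binds response elements in DNA and changes transcription of nearby genes. In the lung the pathway is known for maturing the alveolar epithelium and for damping inflammation. Fkbp5 encodes a co-chaperone that lowers the receptor's affinity for hormone and so forms a short feedback loop. Tsc22d3 encodes GILZ, a leucine zipper protein that restrains inflammatory transcription factors. Ddit4 encodes REDD1, an inhibitor of mTORC1 that also responds to hypoxia and to the integrated stress response. Zbtb16 encodes the zinc finger repressor PLZF, which also directs innate-like T cell development. Sgk1 encodes a kinase that controls ion channels, and it is a known target of the mineralocorticoid receptor as well. Klf9 encodes a zinc finger transcription factor that also oscillates with the circadian clock.

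The RefSeq promoter windows of the genes were read to show which carry the letters that the receptor is known to bind. Each window runs from 250 bases before to 50 bases after an annotated start site on GRCm38.p6, and 12 windows were matched for 5 of the 6 genes. Zbtb16 was not among them. Both strands were searched for the palindromic element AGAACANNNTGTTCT. One window held it, that of Sgk1 at chr10:21993640-21993939 on the plus strand, and the element is in capitals in the sequence.
Sgk1: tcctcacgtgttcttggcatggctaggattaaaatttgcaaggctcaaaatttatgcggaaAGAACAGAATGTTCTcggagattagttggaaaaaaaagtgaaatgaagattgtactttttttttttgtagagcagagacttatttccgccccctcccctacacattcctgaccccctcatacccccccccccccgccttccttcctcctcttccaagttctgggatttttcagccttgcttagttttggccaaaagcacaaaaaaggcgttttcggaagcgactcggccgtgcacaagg
The match begins 189 bases before the start site of that window. Among all 32851 promoter windows, 3 held these letters, a share of 0.00913%. The single arm AGAACA, which the palindrome contains and which was also searched on both strands, was found in 4 of the 12 windows, 3 of the 6 of Sgk1 and 1 of the 3 of Tsc22d3, and in 19.0% of all windows.

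The second sequence shows the promoter of Fkbp5, the gene with the largest difference between the groups over all cells, at chr17:28486100-28486399 on the minus strand. It held neither the palindrome nor the single arm. It held 1 E-box, CACGTG, the letters known to be bound by clock and other basic helix-loop-helix factors, which is in capitals.
Fkbp5: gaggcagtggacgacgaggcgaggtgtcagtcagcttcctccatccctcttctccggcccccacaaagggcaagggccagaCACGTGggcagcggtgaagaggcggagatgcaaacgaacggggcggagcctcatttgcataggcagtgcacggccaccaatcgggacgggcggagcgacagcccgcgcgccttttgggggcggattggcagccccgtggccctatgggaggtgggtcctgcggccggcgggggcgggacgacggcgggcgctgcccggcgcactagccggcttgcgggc
The E-box begins 169 bases before the start site and occurs in 7.15% of all windows. The Sgk1 window printed above also holds 1 E-box, beginning 246 bases before its start site. A match describes these letters in these windows and is not a measured binding site, and binding outside the windows was not examined.

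Levels are given as CPM, the UMIs of a gene per 1000000 UMIs of the kept cells of a library. Fkbp5 (ENSMUSG00000024222, chromosome 17, 28399094 to 28517527 on GRCm38, minus strand) stood at 178, 124 and 227 CPM in p16-DTR replicates 1 to 3. The controls held 47.5, 102 and 85.5. The lowest library labelled p16-DTR was above the highest control, and control replicate 1 was the lowest of the 6. The means were 177 ± 51.5 and 78.5 ± 28.1 (SD, n = 3 each). The edgeR fit gave a log2 fold change of 1.22 with a standard error (SE) of 0.33. Each SE is derived from the F statistic of the fit and is no test of these 6 genes.

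Tsc22d3 (ENSMUSG00000031431, chromosome X, 140539528 to 140600659, minus strand) stood at 354, 312 and 387 CPM under the p16-DTR label and at 151, 266 and 278 in the controls. The groups did not overlap, and control replicate 1 was again the lowest. Its log2 fold change was 0.65 (SE 0.23). Ddit4 (ENSMUSG00000020108, chromosome 10, 59949669 to 59951834, minus strand) was much lower in level, at 38.1, 28.5 and 39.3 CPM against 12.3, 25.7 and 19.0 in the controls. Its groups did not overlap either, with a log2 fold change of 0.94 and a standard error of 0.27.

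Zbtb16 (ENSMUSG00000066687, chromosome 9, 48654297 to 48836222, minus strand) stood at 908, 765 and 811 CPM against 373, 721 and 705 in the controls. Control replicates 2 and 3 lay just under the p16-DTR libraries and control replicate 1 far under them. Its log2 fold change was 0.51 (SE 0.24).

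Sgk1 and Klf9 overlapped between the groups. Sgk1 (ENSMUSG00000019970, chromosome 10, 21882184 to 21999903, plus strand) stood at 198, 172 and 200 CPM against 134, 202 and 196 in the controls. All but control replicate 1 lay in one narrow band. Klf9 (ENSMUSG00000033863, chromosome 19, 23141226 to 23168134, plus strand) stood at 345, 316 and 350 against 306, 331 and 300. The log2 fold changes were 0.15 for both, with standard errors of 0.16 for Sgk1 and 0.07 for Klf9.

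**Figure D1:**
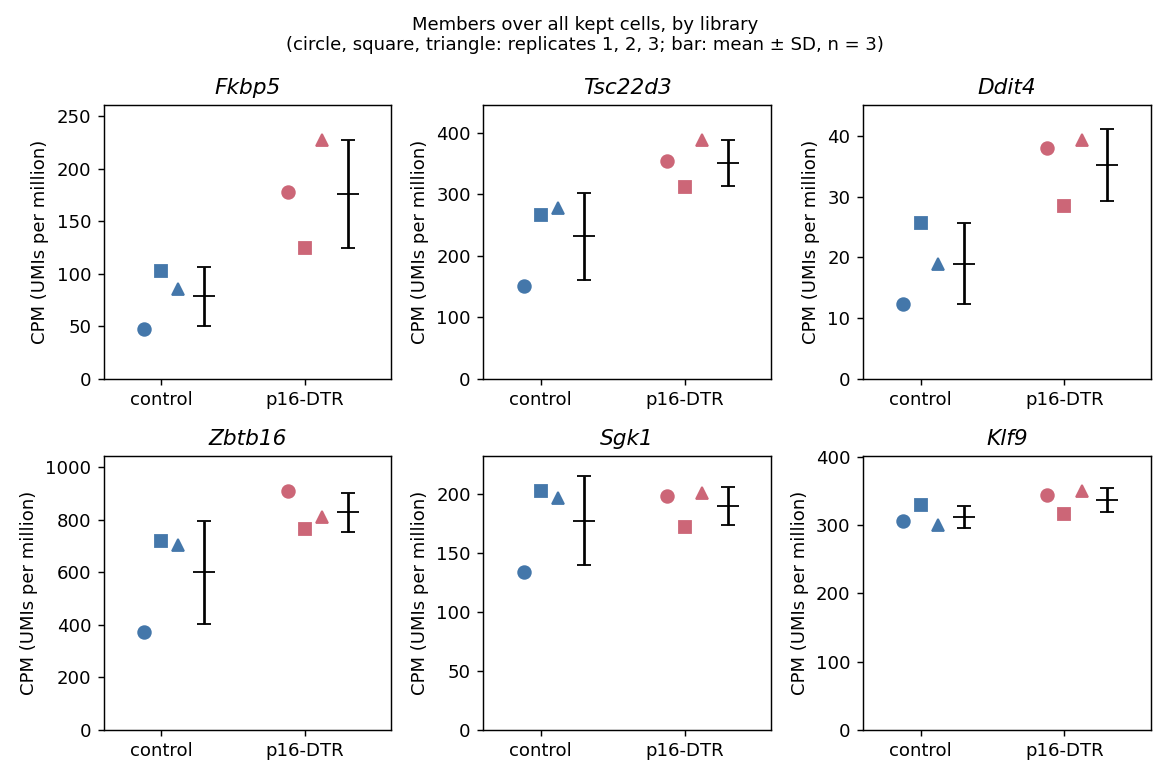
CPM of each gene over all kept cells (vertical axes, from 0), with 1 point per library and the mean ± SD of 3 libraries beside each group. Fkbp5, Tsc22d3, Ddit4 and Zbtb16 show no overlap between groups, Sgk1 and Klf9 do, and control replicate 1 (blue circle) is the lowest library for every gene except Klf9.

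Over all cells, 4 of the 6 genes were higher in every library labelled p16-DTR than in any control. Of 21248 genes tested, 9.04% lay this way. Control replicate 1 was the lowest library for 5 of the 6 genes, and Klf9 was lowest in control replicate 3. Without control replicate 1 the log2 fold change was 0.97 for Fkbp5, 0.72 for Ddit4, 0.43 for Tsc22d3 and 0.27 for Zbtb16, while Sgk1 came to -0.01 and Klf9 to 0.15. In sums over all cells, a change in the number of cells of a type and a change in RNA per cell cannot be told apart. CPM was also averaged over the cell classes below, each counted once, and the log2 ratio of the group means was taken without a fit. It was 1.04 for Fkbp5, 0.57 for Zbtb16, 0.60 for Ddit4, 0.48 for Tsc22d3, 0.20 for Klf9 and -0.19 for Sgk1. Classes with a high level of a gene weigh most in this ratio.

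Cells were then assigned to classes by marker genes, none of which is one of the 6, and each class name means cells that resemble that type by its markers. Every library had at least 50 cells in 20 classes. Arterial endothelium, whose leading genes held a marker of another class and none of its own, and proliferating cells, a mixture of lineages, were not compared. The other 18 classes ran from 442 gamma-delta T cells to 20093 alveolar fibroblasts in total. All 6 genes passed the filter on low counts in all 18 classes. The group means of Fkbp5 and Tsc22d3 were higher for the p16-DTR label in 18 of 18 classes, those of Ddit4 and Zbtb16 in 17, that of Klf9 in 14 and that of Sgk1 in 6. The groups lay apart, with every p16-DTR library higher, in 13 classes for Fkbp5, 13 for Tsc22d3, 7 for Zbtb16, 6 for Ddit4, 5 for Klf9 and 1 for Sgk1. Of all 211970 combinations of a gene and a class, 7.98% lay apart with p16-DTR higher and 11.2% with p16-DTR lower. The classes come from the same 6 libraries and are not replicates of one another.

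**Figure D2:**
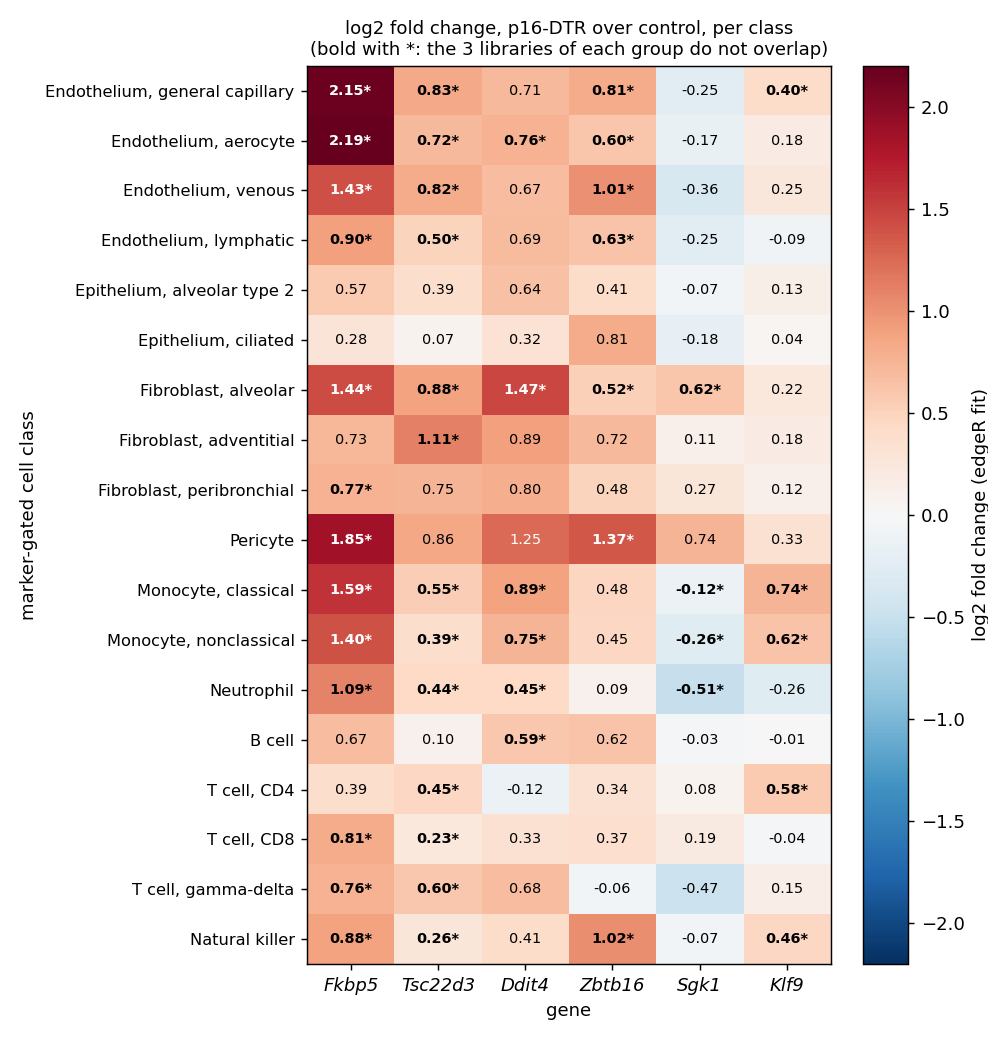
The log2 fold change of p16-DTR over control for each gene (columns) in each of 18 marker-gated classes (rows), with red for higher and blue for lower in libraries labelled p16-DTR. Fkbp5 and Tsc22d3 are positive in every row, from 0.28 to 2.19 and from 0.07 to 1.11, whereas Sgk1 is negative in most rows.

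Fkbp5 had its largest fold differences in the capillary endothelium, where its level was low. In aerocytes, the capillary cells specialised for gas exchange, it stood at 12.2, 8.78 and 20.5 CPM against 2.09, 1.94 and 4.88 in the controls, a log2 fold change of 2.19 (SE 0.39). General capillary cells, which repair the capillary bed, held 51.4, 35.9 and 118 against 8.91, 21.3 and 16.5, a log2 fold change of 2.15 (SE 0.46). In both classes the groups did not overlap and p16-DTR replicate 3 was the highest library. The aerocyte levels in p16-DTR libraries were like those of alveolar type 2 cells in the same libraries, at 7.87, 10.4 and 21.9. In the controls alveolar type 2 cells held 6.89, 13.2 and 8.20, above the aerocytes in every library. General capillary cells lay above both classes in both groups. Free RNA, which carries counts of a gene between cells, was not removed, and its part in levels as low as those of the aerocytes was not tested.

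Pericytes, the contractile cells around capillaries, came next for Fkbp5. They held 346, 165 and 424 CPM against 29.0, 113 and 115, a log2 fold change of 1.85 (SE 0.46), and control replicate 1 lay far under the other 5 libraries. Classical monocytes held 159, 130 and 228 against 18.7, 92.1 and 66.2, a log2 fold change of 1.59 (SE 0.46). Alveolar fibroblasts held 281, 199 and 381 against 43.3, 156 and 123, a log2 fold change of 1.44 (SE 0.43). In these 3 classes too the groups lay apart.

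The Fkbp5 groups overlapped in 5 classes, which were the alveolar type 2 and ciliated epithelium, adventitial fibroblasts, B cells and CD4 T cells. Ciliated cells held 15.6, 28.5 and 26.7 CPM against 17.5, 21.0 and 19.4. The p16-DTR libraries there lay on both sides of the controls. Control replicate 1 was the lowest library for Fkbp5 in 16 of 18 classes, and p16-DTR replicate 3 was the highest in 16. The median log2 fold change over classes was 0.89, and 0.68 without control replicate 1.

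**Figure D3:**
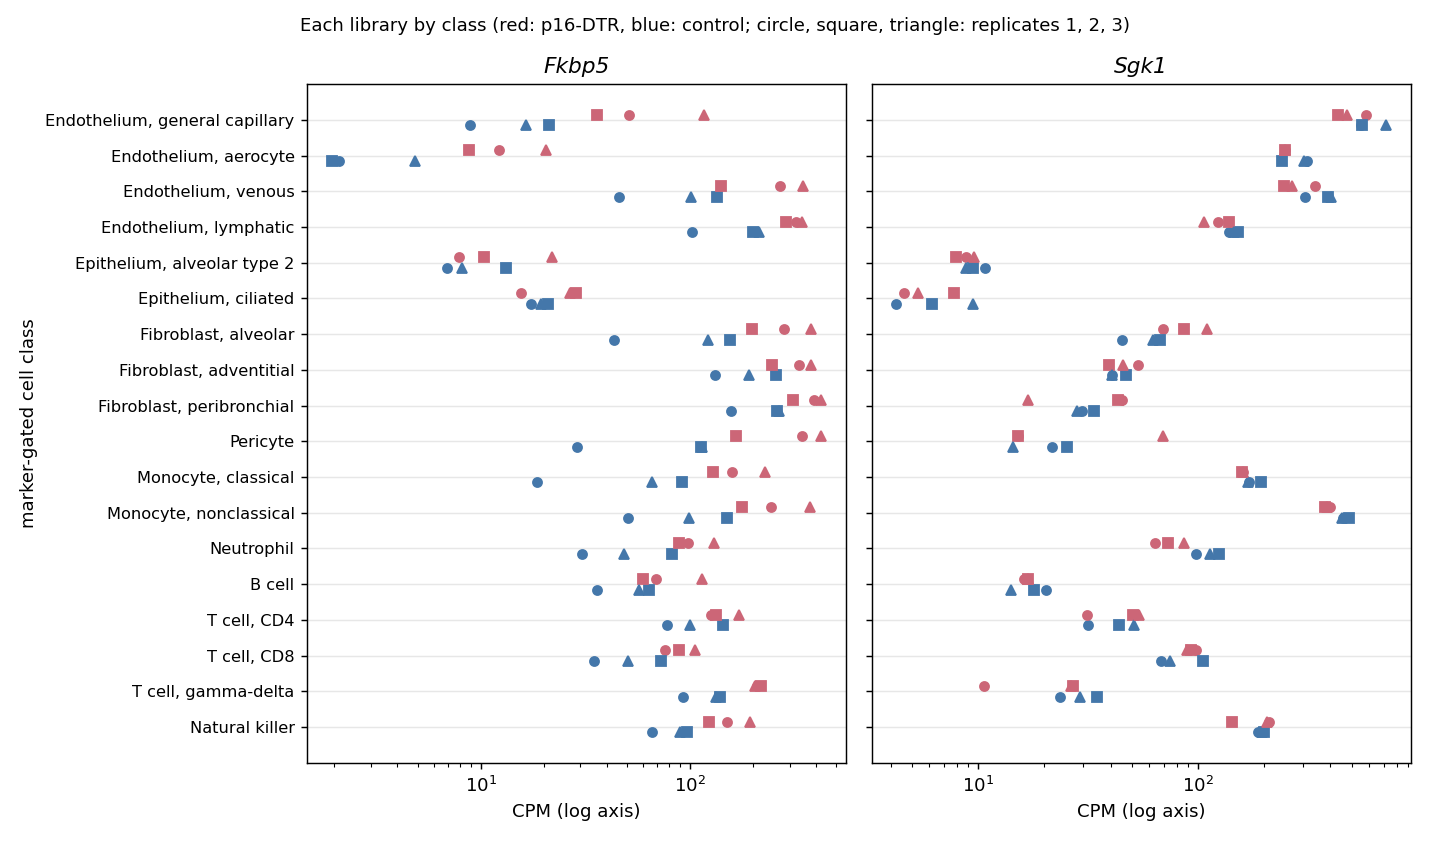
CPM of Fkbp5 (left) and Sgk1 (right) in each library by class, on log axes, with red points for p16-DTR libraries and blue points for controls. For Fkbp5 the red points lie to the right of the blue in 13 classes, and for Sgk1 the colours mix in 14 classes.

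Tsc22d3 was the gene in which control replicate 1 stood out most regularly, as the lowest library in all 18 classes. Its largest fold difference was in adventitial fibroblasts, the matrix-producing cells of vessel and airway cuffs, at 216, 152 and 221 CPM against 60.9, 125 and 91.0. The log2 fold change was 1.11 (SE 0.25). In alveolar fibroblasts Tsc22d3 stood at 537, 448 and 616 against 144, 372 and 366, a log2 fold change of 0.88 (SE 0.32), with control replicate 1 well under the other controls. B cells had the highest level and nearly no difference, at 861, 797 and 787 against 738, 844 and 750. The median log2 fold change over classes was 0.52, and 0.37 without control replicate 1.

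Ddit4 differed most in alveolar fibroblasts, where its level was lowest. The libraries there held 5.12, 3.63 and 11.2 CPM against 1.14, 3.46 and 2.77, so p16-DTR replicate 2 lay just above control replicate 2. The part of free RNA in these low levels was not tested either. Nonclassical monocytes, which patrol vessel walls, held 115, 142 and 115 against 63.8, 61.6 and 97.2, a log2 fold change of 0.75 (SE 0.17). The groups also lay apart in classical monocytes, neutrophils, B cells and aerocytes. CD4 T cells were the 1 class with a lower p16-DTR mean, with a log2 fold change of -0.12. The median over classes was 0.69, and 0.48 without control replicate 1.

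Zbtb16 lay apart between the groups in all 4 endothelial classes, in alveolar fibroblasts, in pericytes and in natural killer cells. Venous endothelium held 1018, 877 and 1024 CPM against 207, 602 and 645, a log2 fold change of 1.01 (SE 0.33). Pericytes held 335, 358 and 673 against 33.0, 239 and 256, a log2 fold change of 1.37 (SE 0.58). In both classes control replicate 1 was the lowest by a wide margin. Natural killer cells differed in this respect, with 51.0, 94.5 and 76.0 against 31.9, 32.8 and 40.8 and 3 controls close together, a log2 fold change of 1.02 (SE 0.19). In gamma-delta T cells, a lineage whose development uses PLZF, Zbtb16 stood at 629, 633 and 1035 against 842, 779 and 742, and the groups overlapped. The median over classes was 0.56, and 0.30 without control replicate 1.

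Sgk1 had a lower p16-DTR mean in 12 of 18 classes. Its median log2 fold change over classes was -0.10, and -0.09 without control replicate 1. Over all cells its log2 fold change was 0.15 (SE 0.16), close to the 0.15 (SE 0.07) of Klf9, and the groups overlapped for both. Neutrophils held 63.7, 73.3 and 86.6 CPM against 97.5, 125 and 114, with every p16-DTR library under every control and a log2 fold change of -0.51 (SE 0.13). Nonclassical monocytes held 400, 379 and 388 against 458, 485 and 453, and classical monocytes 160, 158 and 161 against 171, 194 and 168. The groups lay apart in these 3 myeloid classes with p16-DTR lower.

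Alveolar fibroblasts were the 1 class in which Sgk1 lay apart with p16-DTR higher. They held 69.0, 86.1 and 110 CPM against 45.2, 67.0 and 62.4, a log2 fold change of 0.62 (SE 0.18). The pericyte mean was also higher, with a log2 fold change of 0.74 (SE 0.54), through p16-DTR replicate 3 at 69.5 against 14.5 to 25.4 in the other 5 libraries. General capillary cells, the class with the highest Sgk1 level, held 583, 433 and 476 against 548, 556 and 716, and the groups overlapped.

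Klf9 lay apart with p16-DTR higher in general capillary cells, both monocyte classes, CD4 T cells and natural killer cells. Classical monocytes held 124, 123 and 145 CPM against 47.9, 105 and 88.2, a log2 fold change of 0.74 (SE 0.23). CD4 T cells held 41.0, 36.6 and 39.3 against 24.6, 23.6 and 28.1, a log2 fold change of 0.58 (SE 0.12). Control replicate 1 was not apart from the other controls in CD4 T cells. In the fibroblast classes the groups overlapped, with log2 fold changes from 0.12 to 0.22. The median over classes was 0.18, and 0.16 without control replicate 1.

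Read by class, the 6 genes had their highest median log2 fold change in pericytes, at 1.05. Of the 6, 2 lay apart there, Fkbp5 and Zbtb16, against 7.98% of all combinations of a gene and a class. Pericytes numbered as few as 66 in a library. There p16-DTR replicate 3 was the highest library for each of the 6, and control replicate 1 was far the lowest for Fkbp5 and Zbtb16. The lowest median was 0.18, in ciliated cells, where none of the 6 lay apart between the groups. In ciliated cells 5.64% of all genes tested lay apart with p16-DTR higher. Alveolar type 2 cells also had none of the 6, with a median of 0.40, and 4.6% of all genes. In alveolar fibroblasts 5 of the 6 lay apart with p16-DTR higher, all but Klf9, as did 11.2% of the 16969 genes tested there. The median over all genes tested lay between -0.01 and 0.01 in every class.

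The levels over the 6 libraries ordered the classes differently for each gene. Fkbp5 was highest in peribronchial fibroblasts, at 303 ± 97.9 CPM (SD over 6 libraries), followed by adventitial fibroblasts at 257 ± 89.6 and lymphatic endothelium at 246 ± 91.1. It was lowest in aerocytes, at 8.40 ± 7.14, and the span from top to bottom was 36.0-fold over all 6 libraries. Between the same classes it was 76.7-fold in the control means and 27.3-fold in the p16-DTR means. Among the p16-DTR means alone, alveolar type 2 cells were the lowest, at 13.4 against 13.8 in aerocytes. Each pair of neighbours in that order overlapped in range, 17 of 17 pairs, and 2 pairs kept their order in all 6 libraries. Within the order the capillary endothelium lay near the bottom and the lymphatic and venous endothelium in the upper part.

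Tsc22d3 was highest in B cells, at 796 ± 49.1 CPM, apart from alveolar fibroblasts at 414 ± 164 in every library and without overlap. It was lowest in ciliated cells, at 38.5 ± 3.9. Neighbours overlapped in 15 of 17 pairs. Ddit4 was highest in nonclassical monocytes, at 99.2 ± 31.6, and lowest in alveolar fibroblasts, at 4.55 ± 3.5, and all 17 neighbouring pairs overlapped.

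Zbtb16 had the widest span, 200-fold over the 6 libraries. It stood at 1437 ± 415 CPM in alveolar fibroblasts, 890 ± 327 in general capillary cells and 776 ± 151 in gamma-delta T cells, and at 7.19 ± 2.3 in CD8 T cells. The order below alveolar fibroblasts differed between the groups. In the control means gamma-delta T cells (787) were above general capillary cells (656), and in the p16-DTR means venous endothelium (973) and adventitial fibroblasts (783) were above gamma-delta T cells (765). Neighbours overlapped in 16 of 17 pairs. Among the T cells it was highest in the gamma-delta class, at 776 against 39.4 ± 20.1 in CD4 and 7.19 in CD8 cells.

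Sgk1 was highest in general capillary endothelium at 552 ± 97.9 CPM, nonclassical monocytes at 427 ± 43.8 and venous endothelium at 325 ± 64.4, and lowest in ciliated cells at 6.27 ± 2.0. Its neighbours overlapped in 14 of 17 pairs. Klf9 was highest in adventitial fibroblasts at 507 ± 62.3 and alveolar fibroblasts at 502 ± 52.2, which did not differ beyond their spread. It was lowest in neutrophils at 21.5 ± 5.9, and 15 of 17 neighbouring pairs overlapped.

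**Figure D4:**
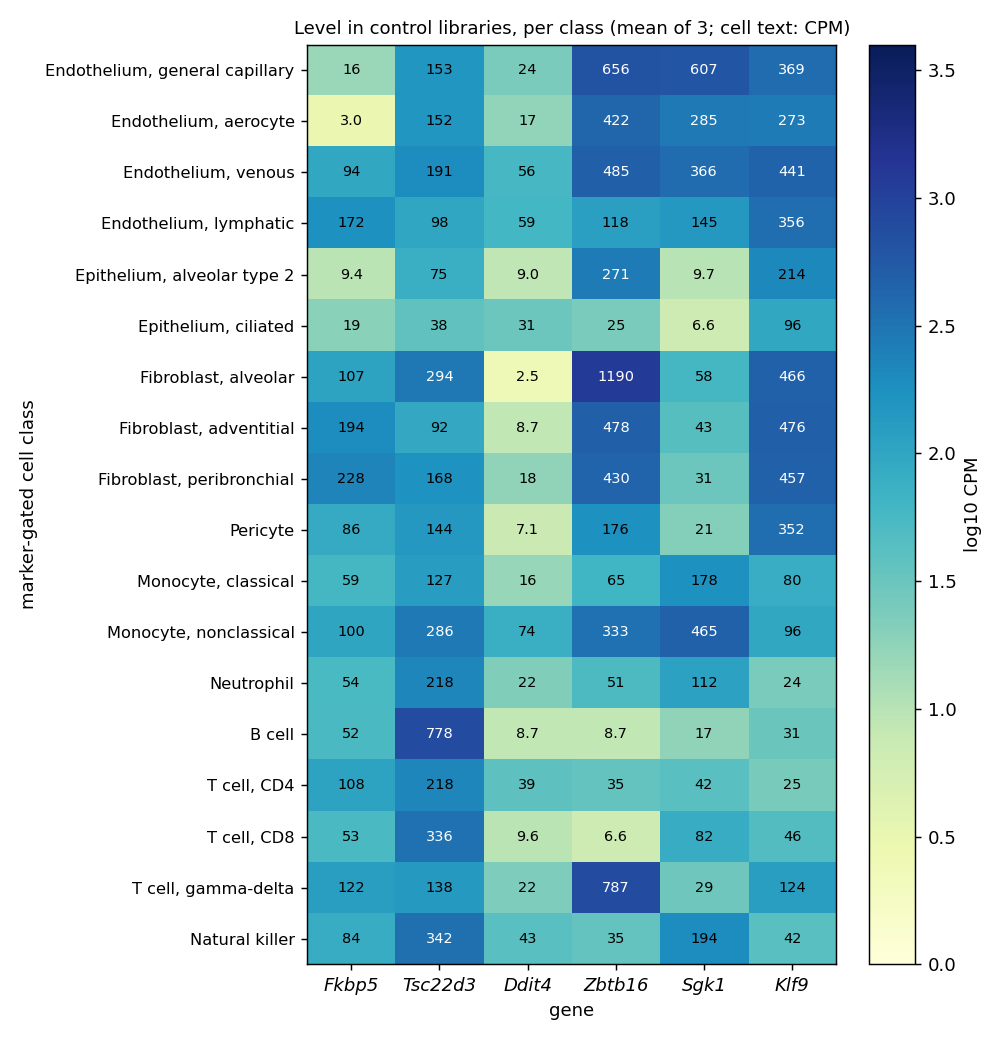
Level of each gene (columns) in each class (rows) as the mean of the 3 control libraries, coloured by log10 CPM, with CPM in the cells. Colours compare classes within a column, and Zbtb16 has its deepest colour in alveolar fibroblasts while Sgk1 has it in general capillary endothelium.

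The genes whose level over the 18 classes was most like each of the 6 were found among 13866 genes by Pearson correlation of log2(CPM + 1), as a description of points that share 6 libraries. For Fkbp5 they were Atp2b4 (0.85), Tspan5 (0.81) and Esr1 (0.77). For Tsc22d3 they were Gm39469 (0.85), Kmt2e (0.84) and Bicra (0.84), and for Ddit4 Klf10 (0.80), Col4a3bp (0.78) and Elf2 (0.72). For Sgk1 they were Hpcal1 (0.89), Rin3 (0.85) and Tbc1d22a (0.84), and for Klf9 Kdelr2 (0.95) and Trip10 (0.94). The gene most like Zbtb16 was Klf9 itself (0.84), then Slc39a13 (0.84) and Lrp5 (0.84).

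Levels over classes and shifts between libraries gave different pictures. Fkbp5 and Tsc22d3 had a correlation of 0.33 in level over the 18 classes. Their deviations from the group mean, over 108 points of 18 classes in 6 libraries, correlated at 0.73. Tsc22d3 and Zbtb16 were at -0.15 in level and 0.70 in deviation. The deviations of Sgk1 correlated with the rest at 0.22 to 0.46, and pairs without Sgk1 ran from 0.31 to 0.73. The 18 points of a library share its depth and its tissue, so these values describe a shift common to a library and are no test.

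Of the genes that make the pathway work, Nr3c1, the glucocorticoid receptor, was not called in any of the 18 classes by the edgeR quasi-likelihood test with Benjamini-Hochberg adjustment over all genes. It stood at 286, 316 and 289 CPM over all cells in p16-DTR replicates against 294, 286 and 302, and its log2 fold changes by class ran from -0.24 to 0.20, with an edgeR adjusted p of 0.350 at the lowest. Hsd11b1, the enzyme that regenerates active glucocorticoid, was not called either, with 566, 453 and 375 CPM against 694, 494 and 457 over all cells. Its log2 fold changes by class ran from -0.42 in lymphatic to 0.57 in venous endothelium. Alveolar fibroblasts, the class with its highest level, held 1806, 1579 and 1524 against 1487, 1617 and 1363 (0.15). Pericytes, the next, held 1032, 1049 and 829 against 758, 859 and 764 (0.29). The groups overlapped in both. Nr3c2, the mineralocorticoid receptor, which also binds glucocorticoids with high affinity, passed the edgeR test as lower in 5 classes and as higher in none.

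Nr3c2 stood at 109, 107 and 94.4 CPM over all cells under the p16-DTR label and at 173, 155 and 144 in the controls. All 3 p16-DTR libraries were lower, with a log2 fold change of -0.56, which missed the threshold (edgeR quasi-likelihood, adjusted p = 0.138). In venous endothelium it stood at 157, 128 and 140 against 268, 227 and 222 and fell by 0.74 on the log2 scale (edgeR quasi-likelihood, adjusted p = 0.00929), and this held in each of 6 fits that left out 1 library. It also fell in alveolar type 2 cells by 0.80, peribronchial fibroblasts by 0.76, aerocytes by 0.69 and general capillary cells by 0.58. The edgeR adjusted p-values were 0.0189, 0.0106, 0.0348 and 0.0386 in that order. The peribronchial call was lost without p16-DTR replicate 3 (edgeR adjusted p = 0.0651). The alveolar type 2 call was lost without p16-DTR replicate 2 or 3 or control replicate 1, with edgeR adjusted p up to 0.0996, and under the stricter cell filter and the stricter marker gate. The aerocyte call was lost without p16-DTR replicate 2 or 3 or control replicate 1 or 3, with edgeR adjusted p up to 0.121. The general capillary call held in 1 of 6 such fits, that without p16-DTR replicate 2, with edgeR adjusted p up to 0.106 in the others.
Across all 12 receptors, activating enzymes and chaperones these were the only calls, 5 lower of 202 combinations of a gene and a class, or 2.48%, against 0.512% lower and 0.353% higher over all genes. In nonclassical monocytes Nr3c2 lay apart the other way, at 13.8, 16.1 and 13.4 CPM against 4.33, 10.3 and 10.6, and did not pass the test (log2 fold change 0.77, edgeR adjusted p = 0.522).

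A further 28 genes known to respond to glucocorticoids were counted beside the 6. Over all cells none was called by the edgeR quasi-likelihood test, 5 of the 28 had an unadjusted p under 0.05, and edgeR called 0 of all 21248 genes, of which 5047 had an unadjusted p under 0.05. DESeq2 called 4 of the 28, namely Fam107a, Cxcr4 and Nfkbia higher and Slc10a6 lower, and 2607 of all genes. The median log2 fold change of the 28 was 0.17, against -0.02 for all genes. Dusp1, the phosphatase that ends MAP kinase signalling, stood at 938, 847 and 820 CPM against 798, 822 and 819, and Per1, a clock gene with a receptor binding site, at 101, 97.1 and 103 against 84.6, 99.8 and 98.9. Both were named after their values were seen, and both overlapped between the groups.

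By class, edgeR called 5 higher and 7 lower among 388 combinations of these genes and classes. These are 1.29% and 1.80%, against 0.353% and 0.512% over all genes. An unadjusted p under 0.05 was found for 102 of them, or 26.3%, against 13.6% over all genes. The counts were 1 higher without p16-DTR replicate 3, control replicate 1 or control replicate 3, and 4, 3 and 4 lower without p16-DTR replicate 2, p16-DTR replicate 3 and control replicate 1. The medians of the list by class ran from -0.12 in B cells to 0.22 in nonclassical monocytes. This list, like the others, was chosen with earlier results of these data known. Its combinations repeat the same genes over classes of the same 6 libraries, so the shares are descriptions and not independent support. The calls thus went in both directions, and so did those of 1 gene.

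Fam107a, an actin-binding protein of the stress response, rose in venous endothelium. It stood at 80.3, 82.0 and 113 CPM against 36.9, 34.2 and 50.8, a log2 fold change of 1.17 (SE 0.17, edgeR quasi-likelihood, adjusted p = 0.0115), and held in 6 of 6 fits that left out 1 library. In general capillary cells it rose by 1.31 (edgeR adjusted p = 0.0294) and was lost without p16-DTR replicate 3, control replicate 1 or control replicate 3, with edgeR adjusted p up to 0.0755. Zfp36, which encodes an mRNA decay factor and is also an immediate early gene, fell in venous endothelium by 0.70, from 954, 828 and 968 in the controls to 518, 586 and 578. The edgeR adjusted p was 0.00720 and the call held in 6 of 6 such fits. In lymphatic endothelium it fell by 0.71 (edgeR adjusted p = 0.0256) and was lost without p16-DTR replicate 3 or any 1 control, with edgeR adjusted p up to 0.109.

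Errfi1, a feedback inhibitor of the EGF receptor, rose in peribronchial fibroblasts by 0.94 and in CD4 T cells by 0.31 and fell in general capillary cells by 0.48. The edgeR quasi-likelihood adjusted p-values were 0.0301, 0.0372 and 0.0258. In peribronchial fibroblasts it stood at 1120, 900 and 821 CPM against 381, 567 and 570, and the call held only without p16-DTR replicate 1 among the 6 fits that left out 1 library. The CD4 T cell call was lost in each of the 6 and with DESeq2. The general capillary call was kept without p16-DTR replicate 2 or control replicate 2 and lost without any of the other 4 libraries. The other calls, each in 1 class and named after their values were seen, were Txnip higher by 0.76 and Tnfaip3 lower (-0.55) in venous endothelium, and Per1 (-0.44), Il1r2 (-1.20) and Anxa1 (-1.12) lower in CD4 T cells.

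Further lists were read in the same libraries. Among 13 genes that respond to tissue dissociation, edgeR called 2 higher and 11 lower of 227 combinations of a gene and a class. These are 0.881% and 4.85%, against 0.353% and 0.512% over all genes. The lower calls included Egr1 in 4 classes, Junb in 3 and Ier2 and Atf3 in 2 each, all of them immediate early genes. The 2 higher calls were Fos, also an immediate early gene, in natural killer cells (log2 fold change 0.44, edgeR adjusted p = 0.0285) and the heat shock gene Hsph1 in peribronchial fibroblasts (1.35, edgeR adjusted p = 0.0331), both named after their values were seen. Egr1 stood at 499, 657 and 669 CPM in venous endothelium against 1910, 1228 and 1581 (log2 fold change -1.36, edgeR quasi-likelihood, adjusted p = 0.00643). The summed level of the 13 genes over all cells was 7185 to 8109 CPM in p16-DTR libraries and 7733 to 9803 in controls, highest in control replicate 1, and none of the 13 was at 0. That sum is mostly Fos, Jun, Junb, Jund and Egr1. Over all cells 2 of the 13, the heat shock genes Hspa8 and Hsph1, lay apart with p16-DTR higher, against 9.04% of all genes. Another 3, Jun, Egr1 and Ier2, lay apart with p16-DTR lower, and 8 overlapped. The share of all genes apart with p16-DTR lower over all cells was not counted, so these 3 are a description only. The summed levels overlapped between the groups. The medians of the list by class ran from -0.31 in ciliated cells to 0.37 in B cells, with 0.30 in classical monocytes and 0.20 in neutrophils. They were -0.21 to -0.27 in the endothelial classes. Over all cells the median was -0.21, against -0.02 for all genes. An unadjusted edgeR p under 0.05, in either direction, was found for 102 combinations, or 44.9%, against 13.6% over all genes.
Of the Egr1, Junb, Ier2 and Atf3 calls, those of Egr1 and Ier2 in venous endothelium and of Egr1 and Junb in CD4 T cells held in 6 of 6 fits that left out 1 library, and the other 7 were each lost without 1 or more libraries. Junb in lymphatic endothelium was also lost with library size alone and with the stricter marker gate, and Atf3 in venous endothelium with the stricter marker gate. The part of dissociation in the values of the 6 genes was not tested.

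Clock genes, some of which glucocorticoids also set, were read in the same way. Of 15, edgeR called 1 higher (0.435%) and 4 lower (1.74%) among 230 combinations of a gene and a class, against 0.353% and 0.512% over all genes. The higher call was Bhlhe40 in aerocytes (log2 fold change 0.70). The lower calls were Npas2 in venous endothelium (-1.68) and Hlf (-1.39), Nr1d1 (-2.09) and Bhlhe40 (-0.70) in CD4 T cells. Nr1d1 had 5 to 41 UMIs per library there. The calls were named after their values were seen. The summed level of the 15 genes was 535 to 607 CPM in p16-DTR libraries and 589 to 673 in controls, with none at 0. Npas2 and Arntl, partners of the clock's activating arm, and Dbp, an output in the opposite phase, were picked after their values were seen. Npas2 stood at 27.1, 19.0 and 19.6 against 98.1, 30.0 and 53.8, Arntl at 54.3, 52.3 and 58.4 against 103, 62.0 and 79.2, and Dbp at 7.91, 13.6 and 8.23 against 2.73, 8.09 and 4.43. Npas2 and Arntl lay apart with p16-DTR lower, as did Clock and Cry2, 4 of the 15 in all. Ciart lay apart with p16-DTR higher, and 10 overlapped between the groups, Dbp among them. Clock, Cry2 and Ciart were also named after their values were seen. Over all cells 9.04% of all genes lay apart with p16-DTR higher, and the share with p16-DTR lower was not counted. Control replicate 1 was the highest or lowest library for Npas2, Arntl and Dbp and for 10 of the 15 genes in all. It was neither for the other 5, which were Tef, Hlf, Per2, Per3 and Bhlhe40, and Hlf and Tef are outputs of the clock like Dbp. Control replicate 1 was also at an extreme for 21 of the 28 further responsive genes. The same held for 6 of the 12 receptor, enzyme and chaperone genes and 6 of the 13 dissociation genes. Among the 11 hypoxia and stress genes read below it held for 5. The share over all genes was not counted. The time of day at which lungs were taken is not given in the sources used here, and the part of the clock was not tested.

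Ddit4 also answers to hypoxia and the integrated stress response. Of 11 genes of those responses, edgeR called 2 higher and 1 lower among 144 combinations of a gene and a class, which is 1.39% and 0.694% against 0.353% and 0.512% over all genes. They were Vegfa higher in venous endothelium, Egln3 higher in peribronchial fibroblasts and Vegfa lower in natural killer cells, named after their values were seen. The summed level of the 11 overlapped between the groups, at 475 to 516 CPM in p16-DTR libraries and 473 to 528 in controls, and none was at 0. That sum is mostly Vegfa and Atf4. Over all cells the median log2 fold change of the 11 was 0.23, against -0.02 for all genes. An unadjusted edgeR p under 0.05 was found for 7 of the 11, against 23.8% of all genes, and the lowest adjusted p of the list was 0.138 by the edgeR quasi-likelihood test. Chac1, an enzyme that degrades glutathione and is induced by the integrated stress response, stood at 3.64, 2.09 and 2.76 CPM against 1.18, 1.45 and 1.30 (log2 fold change 1.16, edgeR quasi-likelihood, adjusted p = 0.138). Asns, the asparagine synthetase, stood at 10.5, 8.95 and 10.1 against 6.71, 7.37 and 8.07. Over all cells 5 of the 11 lay apart with p16-DTR higher, the other three being Trib3, Sesn2 and Egln3, against 9.04% of all genes. Adm, which encodes the vasodilator adrenomedullin and is induced by hypoxia, lay apart the other way, at 24.5, 13.4 and 13.2 against 76.2, 25.8 and 27.5 (log2 fold change -1.31, edgeR adjusted p = 0.194), with control replicate 1 far above the rest. The other 5, among them Ddit3 and Bnip3, overlapped. These genes were named after their values were seen, and their part in the Ddit4 values was not tested.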

How the data were processed

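The deposited counts are raw UMIs of each gene in each cell barcode, not normalized. The authors made them with Cell Ranger 8.0.1 per the submitters' processing notes, which name the mm10 build. Kept cells had at least 500 UMIs and 300 genes and at most 15% mitochondrial UMIs. A marker was taken as present above 5% of its 99th percentile level, and a cell joined a class with at least 50% of its markers, including 2 specific ones. Cells that passed gates of more than 1 lineage (1480 to 2359 per library) were left out as likely doublets, and no doublet caller was run. Cells left in a class were 90.1% to 92.8% of those kept. Classes below 50 cells in any library, or led by markers of another class, were not compared, nor were proliferating cells, which mix lineages. Free RNA was not removed.

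Counts were summed per library, and per library and class, and scaled to CPM. The edgeR 4.0.16 quasi-likelihood fit (R 4.3.3, filterByExpr, TMM, group alone, all 6 libraries) gave the log2 fold changes and p-values. The p-values were adjusted by Benjamini-Hochberg over all genes of a fit and called at 0.05. Each SE is the absolute log2 fold change divided by the square root of the fit's F statistic. The 6 genes were chosen with this contrast known, so their SEs are not to be read as a test. DESeq2 1.42.0 was an alternative. Others were RLE factors, library size alone, the replicate block, each library left out, stricter cell and marker filters, no low-count filter, every barcode, and equal class weights. The last is a log2 ratio of mean CPM without a fit. The labels number the libraries of a group as samples, so p-values measure the spread between these samples, which may in part be technical. The script was tested on simulated data. The 6 genes and all lists were chosen with earlier results of these data known, and no p-value is given for the 6. Genes of a list were named when called over all cells or in at least 2 classes in 1 direction, up to 8 a list, and Nr3c1, Nr3c2 and Hsd11b1 always. The 3 most alike genes per member needed at least 10 CPM in a class. One of them is not reported here. Positions are from GENCODE on GRCm38 and promoters from RefSeq.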

Additional observations from a re-analysis of the deposited data

Results flagged for a closer look

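Listed here are 4 pairs of classes with opposite directions, for Sgk1, which lay apart both ways, and for list genes called both ways. None of these differences between classes was tested. Nr3c2 is not among them, as it was called only as lower. It was called lower in alveolar type 2 cells (log2 fold change -0.80). In nonclassical monocytes it lay apart higher (0.77) without passing the test. Sgk1 was higher in every p16-DTR library in alveolar fibroblasts (log2 fold change 0.62) and lower in every one in neutrophils (-0.51), a gap of 1.13. It lay apart higher in 1 and lower in 3 of 18 classes. Of all combinations of a gene and a class, 7.98% lay apart higher and 11.2% lower, so such a pair is no trait of Sgk1 alone. Bhlhe40 was higher in aerocytes (0.70) and lower in CD4 T cells (-0.70), a gap of 1.39. Vegfa was higher in venous endothelium (0.62) and lower in natural killer cells (-0.93), a gap of 1.56. Errfi1 was higher in peribronchial fibroblasts (0.94) and lower in general capillary cells (-0.48), a gap of 1.42.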

How the results depend on the processing

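The log2 fold changes of the 6 genes over all cells, and their medians over classes, were compared under every scaling, filter and gate tried. They moved by less than the spread between replicates, with 1 exception. Sgk1 with equal weight for each class had a log2 ratio of mean CPM of -0.19, against 0.15 from the fit. Leaving out 1 library gave 0.97 to 1.46 for Fkbp5, 0.43 to 0.79 for Tsc22d3, 0.27 to 0.67 for Zbtb16 and -0.01 to 0.25 for Sgk1 over all cells. Among the 28 further responsive genes, DESeq2 called 3 higher and 1 lower over all cells. By class, where edgeR called 5 higher and 7 lower, DESeq2 called 23 higher and 17 lower, and edgeR without the low-count filter 32 higher and 21 lower, and the cause was not tested. Leaving out 1 library gave 1 to 5 higher and 3 to 8 lower. Over all genes and classes the 1833 calls came to 553 without p16-DTR replicate 3, 678 without control replicate 1, 972 without control replicate 3, 1037 without p16-DTR replicate 2, 5191 with DESeq2 and 7550 without the filter. Same-numbered libraries did not deviate together in every pair (r = 0.33, -0.07 and 0.33). Differently numbered pairs ran from -0.40 to 0.15, under the values of replicates 1 and 3. The numbers were not taken as pairs in the main fit, and a batch shared by same-numbered libraries was not tested. The replicate block gave 4 higher and 6 lower by class, 1713 calls over all genes and classes, and 1.25 for Fkbp5 over all cells. Under the replicate block 7 of the 23 calls of the named list genes had an edgeR adjusted p between 0.0538 and 0.0913, which were Nr3c2, Fam107a, Errfi1 and Egr1 in general capillary cells, Errfi1 in CD4 T cells and Junb and Atf3 in venous endothelium. Classes of few cells, such as gamma-delta T cells, limit the precision of low genes.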
